A study of Mus musculus with 9 samples.

Results

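The 9 genes described here mark cytotoxic lymphocytes: Cd8a and Cd8b1, the granzymes Gzma, Gzmb and Gzmk, and Prf1, Nkg7, Fasl and Eomes. They were chosen by symbol from a table of 46517 genes, and each symbol stood on 1 row. Bulk RNA came from C57BL/6 mice, all labelled as older than 18 months. The groups were 2 plckGAPDH lymph nodes, titled 455 and 508, 4 plckGAPDH spleens, titled 343, 508, 547 and 1 whose column has no number (the unnumbered spleen), and 3 wild-type spleens, titled 1, 4 and 5. In plckGAPDH mice, called tumour developing in the labels, the proximal Lck promoter drives a Gapdh transgene in T lineage cells. Number 508 gave both a spleen and a lymph node, and the title of lymph node 455 adds MES, which no label explains. Whether the unnumbered spleen came from an animal of its own was not settled, and the labels do not say that samples came from separate animals, so p-values cover only the spread among these libraries, which may be partly technical.

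Cytotoxic T cells and natural killer (NK) cells kill by releasing granules onto a target cell. Perforin opens the way and granzymes, which are serine proteases, then act inside the target, while Fas ligand on the killer's surface triggers a separate death receptor route. Eomes is a transcription factor of the T-box family that, with its relative T-bet, directs this programme in CD8 T cells and in NK cells. In the mouse, granzyme A is abundant in NK cells, and granzyme K marks a set of memory CD8 T cells that widens with age.

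On the mouse build GRCm38 (GENCODE M21), Cd8b1 (chr6:71322788-71337494) and Cd8a (chr6:71373427-71379173) lie 35.9 kb apart on the plus strand. Gzma (chr13:113093825-113100981) and Gzmk (chr13:113171608-113225908) are neighbours on the minus strand, 70.6 kb apart, and Gzmb (chr14:56258838-56262260) lies in another granzyme cluster. Prf1 (chr10:61297833-61304680), Nkg7 (chr7:43437073-43438249), Fasl (chr1:161780689-161788495) and Eomes (chr9:118478212-118486132) are single loci. Gzmk overlaps Esm1 and Eomes overlaps Gm33460, both on the opposite strand. The library kit keeps strand, but the sources used here do not give the strand setting of the counting, so reads of such pairs may mix.

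The start regions of the 3 granzymes are shown because the results turn on how their levels differ from one another. Each line gives 250 bases before and 50 after the RefSeq start (build GRCm38.p6), 5′ to 3′ in the direction of the gene, with capitals for matches on either strand to the letters GGTGTG (T-box core) or TGTGGT (RUNX core). The windows are chr13:113100932-113101231 for Gzma, chr13:113180916-113181215 for Gzmk and chr14:56262285-56262584 for Gzmb, all on the minus strand.
Gzma: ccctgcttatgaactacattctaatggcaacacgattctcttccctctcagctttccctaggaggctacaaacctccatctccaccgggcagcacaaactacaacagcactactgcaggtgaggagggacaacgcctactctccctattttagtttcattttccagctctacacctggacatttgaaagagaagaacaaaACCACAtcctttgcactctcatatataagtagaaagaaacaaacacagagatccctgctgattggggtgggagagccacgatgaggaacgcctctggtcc
Gzmk: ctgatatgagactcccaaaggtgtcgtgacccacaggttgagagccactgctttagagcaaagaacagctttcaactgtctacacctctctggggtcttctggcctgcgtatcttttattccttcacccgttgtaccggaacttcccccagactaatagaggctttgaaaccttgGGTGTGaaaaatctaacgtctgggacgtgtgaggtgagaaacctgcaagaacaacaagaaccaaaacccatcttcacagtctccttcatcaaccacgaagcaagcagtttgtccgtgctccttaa
Gzmb: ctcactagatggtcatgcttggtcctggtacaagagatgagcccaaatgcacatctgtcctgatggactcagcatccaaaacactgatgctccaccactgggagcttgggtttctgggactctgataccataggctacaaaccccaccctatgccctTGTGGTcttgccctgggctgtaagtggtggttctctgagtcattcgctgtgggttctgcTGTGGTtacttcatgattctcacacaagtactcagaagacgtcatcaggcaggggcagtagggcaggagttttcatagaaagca
The Gzma window held 1 RUNX match and the Gzmb window 2, while the Gzmk window held 1 T-box match and no RUNX match. Windows were found for 8 of the 9 genes, Cd8b1 not among them. The T-box letters occurred in 3 of the 8 windows and in 19.1% of 32817 RefSeq windows of the same length, and the RUNX letters in 4 of the 8 and in 16.8%. Other letters searched were GGAAGT (ETS core), in 3 of the 8 windows and 23.8% of all, and TGANTCA (AP-1 site, with N any base), in 1 of the 8 and 7.81% of all. Matches of different motifs can overlap, and a match is a description of letters, not of binding. The RefSeq starts of Gzmb and Gzmk differ from the GENCODE gene ends given above, and the last bases of these windows were found in no GENCODE transcript of the gene.

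Levels below are FPKM, fragments scaled to gene length and to the fragments counted in the library. Estimated depth was 23800000 to 34500000 fragments per library. Libraries differed in content. The 8 neutrophil genes summed to 484 FPKM or more in all plckGAPDH and 2 wild-type spleens, but to 4.66 FPKM in wild-type spleen 4. They summed to 38.7 and 56.1 FPKM in lymph nodes 455 and 508. Haemoglobin RNA such as Hbb-bs reached 33216 FPKM in wild-type spleen 5 and was at 0.17 (wild-type spleen 4) to 808 FPKM in the other 8 libraries. Mitochondrial genes made up from 11.4% of all FPKM, in plckGAPDH spleen 508, to 43.3%, in wild-type spleen 4. Wild-type spleen 4 was the highest library for 4 of the 9 genes. In number 508, the antibody genes Ighg2c and Iglc1 were at 27891 and 53162 FPKM in the lymph node and at 59425 and 104354 FPKM in the spleen, against at most 468 and 510 FPKM in the other libraries. The stromal genes Nkx2-3 and Tlx1 were at 0.13 FPKM or less in all libraries. The red pulp macrophage gene Spic was at 0.55 and 2.45 FPKM in the lymph nodes, and at 1.87 to 9.80 FPKM in plckGAPDH spleens and 5.11 to 31.3 FPKM in wild-type spleens. Ccl21a of lymph node stroma was at 9.53 FPKM in lymph node 455, 0.69 in lymph node 508, at most 0.08 FPKM in plckGAPDH spleens and 0.49 to 2.32 FPKM in wild-type spleens.

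Gzma was the only gene of the set called lower in plckGAPDH spleens, and the call held in 6 of 18 alternative settings. Every plckGAPDH spleen held less Gzma than any wild-type spleen. Gzmb and Gzmk did not follow it: in plckGAPDH spleens 343, 547 and the unnumbered spleen both exceeded their levels in wild-type spleens 1 and 5. The same held for Prf1, Fasl and Eomes. It did not hold against wild-type spleen 4, where Gzmb (29.6 FPKM) lay above spleen 343 and Gzmk (70.0 FPKM) above spleens 343 and 547. Spleen 508 had little of all 9 genes. In the comparison of 4 plckGAPDH with 3 wild-type spleens, 1 of the 9 genes was called lower and 0 higher by limma, at an FDR (false discovery rate after Benjamini and Hochberg) under 0.05, against 1.23% of 12607 genes called lower and 0.206% called higher. All 9 genes passed the filter of 1 FPKM in 3 spleens. Their median log2 fold change was -0.71, against 0.02 over all genes tested. This depended on spleen 508. Without it, Cd8a, Cd8b1 and Gzma were at -0.33, -0.82 and -2.87, and the other genes between 0.13 (Eomes) and 2.05 (Gzmb). The median over all genes was then 0.15. In bulk samples, fewer cells of a type and less RNA per cell cannot be told apart.

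**Figure D1:**
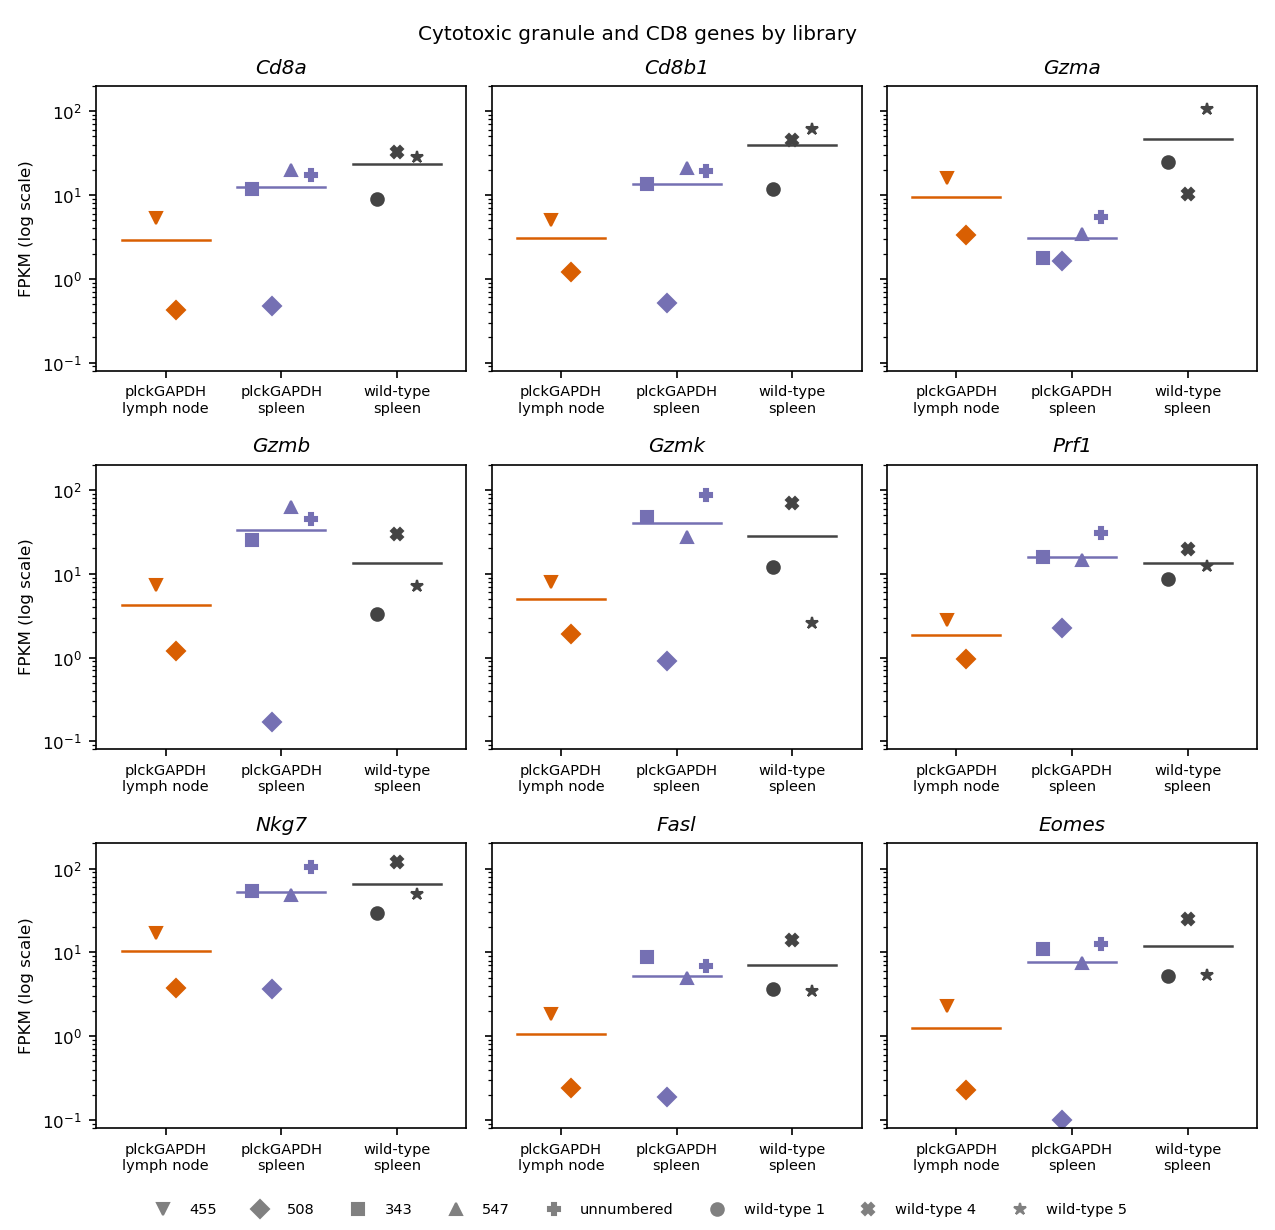
FPKM of the 9 genes in each library on a log scale, by group, with 1 symbol per library and a line at the group mean (2 lymph nodes and 4 spleens of plckGAPDH mice, 3 wild-type spleens). Only the Gzma panel has all plckGAPDH spleens (1.63 to 5.50 FPKM) below all wild-type spleens (10.2 to 107 FPKM), and in the other panels spleen 508 lies far under the rest of its group.

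Gzma, the granzyme most abundant in resting NK cells, was at 1.76, 1.63, 3.46 and 5.50 FPKM in plckGAPDH spleens 343, 508, 547 and the unnumbered spleen, against 24.8, 10.2 and 107 FPKM in wild-type spleens 1, 4 and 5. The highest plckGAPDH spleen lay below the lowest wild-type spleen, a separation that 3.88% of all genes tested showed towards lower values and 3.39% towards higher ones. Gzma averaged 3.09 ± 1.81 FPKM over the plckGAPDH spleens (SD, n = 4), against 47.2 ± 51.9 FPKM over the wild-type ones (SD, n = 3). On the log2(FPKM + 1) scale, which understates changes of low genes, Gzma fell by 3.04 (SE 0.65, limma FDR 0.0404, lower in 4 of 4 spleens). The direction held in all 18 alternatives tried, but the call held in only 6 of them, with an FDR from 0.00292 to 0.87. It was lost without wild-type spleen 5 (fold change -2.16, FDR 0.146), without wild-type spleen 1 (FDR 0.0605) and without spleen 508 (FDR 0.126). With antigen receptor genes left out of the genes tested it was lost too (FDR 0.121), and 0 of 12360 genes were then called. The further settings are listed in the closing section.

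The wild-type spleens with most Gzma also held most Ncr1. This gene, which encodes the NK receptor NKp46, was at 0.12, 0.06, 0.04 and 0.93 FPKM in plckGAPDH spleens 343, 508, 547 and the unnumbered spleen, against 10.9, 1.01 and 18.0 FPKM in wild-type spleens 1, 4 and 5. It too had its highest plckGAPDH spleen below its lowest wild-type spleen, with a log2 fold change of -2.63 that did not pass (limma FDR 0.0691). The 2 genes did not keep one ratio. Gzma over Ncr1 was 2.28 to 10.1 in wild-type spleens, 5.91 to 86.5 in plckGAPDH spleens, and 32.9 and 18.7 in lymph nodes 455 and 508. Of the 12 genes of the NK list, which includes Nkg7, 10 were tested, and all 10 fold changes lay below 0 (median -1.82). Of these genes, 3 were called lower and 0 higher. Those were Klrd1 (CD94) at -2.80 (FDR 0.0486), Klre1 at -2.20 (FDR 0.0318) and Klrc2 at -1.92 (FDR 0.0173). Without wild-type spleen 5 all 3 calls were lost, with an FDR of 0.293 for Klrd1, 0.213 for Klre1 and 0.0885 for Klrc2. Genes at or near 0 in plckGAPDH spleens could pass the filter only through wild-type spleens. These counts and the median are therefore no measure of the whole list, whose Klra4 and Klra7 were not tested. Tyrobp, an adaptor of NK and myeloid receptors and the most abundant gene of the list, was at -1.38 (limma FDR 0.475). The list summed to 28.8 to 198 FPKM in plckGAPDH spleens and 209 to 488 FPKM in wild-type spleens. Most of each sum came from Tyrobp and Nkg7, and both genes overlapped between the groups. Tyrobp was at 24.0 to 72.1 FPKM in plckGAPDH spleens and 67.8 to 283 FPKM in wild-type spleens. The part of NK cell RNA in the Gzma result was not tested.

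Gzmb, which activates caspases in the target cell, was at 24.98, 0.17, 62.4 and 45.1 FPKM in plckGAPDH spleens 343, 508, 547 and the unnumbered spleen, against 3.29, 29.6 and 7.20 FPKM in wild-type spleens 1, 4 and 5. Spleen 547 and the unnumbered spleen exceeded every wild-type spleen, spleen 343 exceeded 2 of the 3, and spleen 508 lay below all. The value of spleen 508 rests on about 5 fragments, and that of spleen 547 on about 2727. Gzmb averaged 33.2 ± 26.8 FPKM over the plckGAPDH spleens (SD, n = 4), against 13.4 ± 14.2 FPKM over the wild-type ones (SD, n = 3), and the log2 fold change was 0.75 (SE 1.15, limma FDR 0.972). It became 2.05 (SE 0.67, limma FDR 0.291) without spleen 508, short of the threshold. It passed in 1 of 18 alternatives, sample quality weights (2.82, limma FDR 0.0123), whose estimation did not converge.

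Gzmk was at 47.1, 0.92, 27.4 and 86.9 FPKM in plckGAPDH spleens 343, 508, 547 and the unnumbered spleen, against 12.0, 70.0 and 2.59 FPKM in wild-type spleens 1, 4 and 5. The groups overlapped fully, and wild-type spleen 5, with the highest Gzma of all libraries, had the lowest Gzmk of the wild-type spleens. The log2 fold change was 0.56 (SE 1.19, limma FDR 0.986), 1.73 (SE 0.90, FDR 0.696) without spleen 508 and -0.47 without wild-type spleen 5. Esm1, which overlaps Gzmk on the other strand, was at 0.43 to 11.6 FPKM in plckGAPDH spleens and 0.37 to 3.77 FPKM in wild-type spleens, below Gzmk in every library.

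The granzymes took different shares of their summed FPKM from library to library. Gzma was 2.33%, 3.61% and 3.99% of the FPKM of all 10 granzyme genes in plckGAPDH spleens 343, 547 and the unnumbered spleen, but 56.8% in spleen 508. It was 59.4%, 8.99% and 89.4% in wild-type spleens 1, 4 and 5, so wild-type spleen 4 was the wild-type library closest to those 3 plckGAPDH spleens. Gzmk was the leading granzyme in spleen 343 (62.3%), the unnumbered spleen (63.1%) and wild-type spleen 4 (61.8%). Gzmb led only in spleen 547, at 65.1%. The sum of the granzymes was 75.5, 2.87, 95.9 and 138 FPKM in plckGAPDH spleens 343, 508, 547 and the unnumbered spleen, against 41.7, 113 and 119 FPKM in wild-type spleens 1, 4 and 5.

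**Figure D2:**
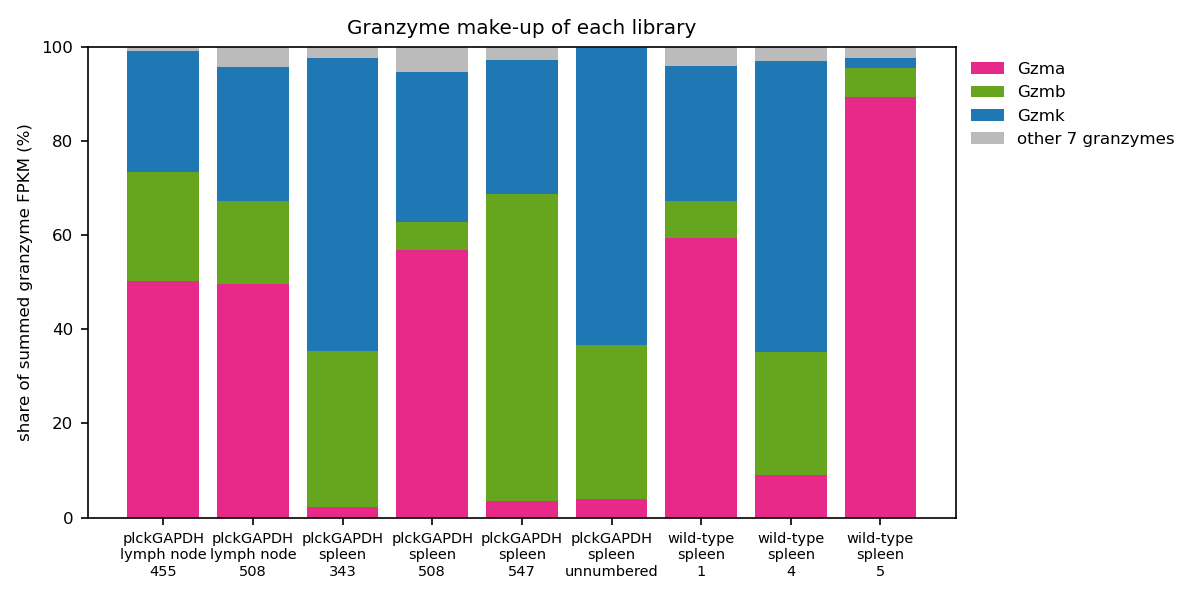
Share of each granzyme in the summed FPKM of 10 granzyme genes, 1 bar per library, with Gzmc to Gzmg, Gzmm and Gzmn combined as the other 7. Gzma is under 4% in 3 plckGAPDH spleens, about 50% in both lymph nodes, 56.8% in spleen 508 and between 8.99% and 89.4% in wild-type spleens.

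Ratios of 2 genes within a library were compared between the 7 spleens, 6 in all. They are printed as plain ratios of FPKM, while each difference and test used log2 ratios with 0.1 FPKM added to both genes. Gzmb over Gzma was 14.2, 0.104, 18.0 and 8.21 in plckGAPDH spleens 343, 508, 547 and the unnumbered spleen, against 0.133, 2.91 and 0.0676 in wild-type spleens 1, 4 and 5. The plckGAPDH minus wild-type difference of the log2 ratio was 3.79 (exact two-sided permutation p = 0.114, adjusted over the 6 ratios 0.229). Gzmk over Gzma was 26.7, 0.564, 7.91 and 15.8 in the same plckGAPDH spleens, against 0.483, 6.88 and 0.0243 in wild-type spleens, a difference of 3.90 (exact permutation p = 0.114, adjusted 0.229). In both ratios, spleens 343, 547 and the unnumbered spleen exceeded every wild-type spleen, and spleen 508 did not. Gzma over Cd3e, a subunit of the T cell receptor complex, ran from 0.0665 to 0.266 over the plckGAPDH spleens and from 0.173 to 3.65 over the wild-type ones (difference -2.69, exact permutation p = 0.171, adjusted 0.257). With 35 splits this test cannot go below 0.0571.

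Cd8a, the chain of the CD8 coreceptor that binds the kinase Lck, was at 11.8, 0.48, 20.1 and 17.2 FPKM in plckGAPDH spleens 343, 508, 547 and the unnumbered spleen, against 9.0, 32.7 and 28.1 FPKM in wild-type spleens 1, 4 and 5. Its partner chain Cd8b1 was at 13.4, 0.51, 21.2 and 19.6 FPKM in plckGAPDH spleens, against 11.7, 44.8 and 61.7 FPKM in wild-type spleens. Apart from spleen 508, the plckGAPDH spleens lay between wild-type spleen 1 and the other two. The log2 fold change was -1.21 (SE 0.81, limma FDR 0.818) for Cd8a and -1.73 (SE 0.86, limma FDR 0.634) for Cd8b1. Without spleen 508 it was -0.33 (FDR 0.928) and -0.82 (FDR 0.849). The Cd8b1 value of spleen 508 rests on about 16 fragments.

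The ratio of the chains did not overlap between the spleen groups. Cd8b1 over Cd8a was 1.05 to 1.14 in the 4 plckGAPDH spleens and 1.29, 1.37 and 2.198 in wild-type spleens 1, 4 and 5. In the plckGAPDH lymph nodes 455 and 508 it was 0.928 and 2.84, below and above all the spleens. The difference of the log2 ratio was -0.52 (exact permutation p = 0.0571, adjusted 0.229), which is the lowest p this test can reach, so it could not pass. Conventional CD8 T cells carry both chains, while some dendritic cells carry only Cd8a. In the list of 6 genes of those dendritic cells, 0 were called, and 5 of the fold changes lay below 0 (median -0.74). The list summed to 79.8 to 281 FPKM in plckGAPDH spleens and 69.6 to 194 FPKM in wild-type spleens, mostly from Irf8 (0.83) and Wdfy4 (-0.06), which other cells also express. Clec9a, a defining gene, was at 0.36 to 1.52 FPKM in plckGAPDH spleens, below the 2.09 to 5.18 FPKM of wild-type spleens. Tlr3 did not overlap either, and 3.88% of all genes tested lay lower without overlap. Xcr1 overlapped, at 0.48 to 1.44 FPKM in plckGAPDH and 1.23 to 3.01 FPKM in wild-type spleens. So did Batf3, at 1.15 to 3.98 FPKM and 3.85 to 5.84 FPKM. The part of these cells in the ratio was not tested. Cd8a over Cd4, which marks helper T cells, ranged more widely in plckGAPDH spleens, at 0.544, 0.0378, 4.66 and 0.207 in spleens 343, 508, 547 and the unnumbered spleen, against 0.427, 0.926 and 1.01 in wild-type spleens (exact permutation p = 0.686, adjusted 0.686). Spleen 547 held the lowest Cd4 of the spleens, at 4.32 FPKM, and the unnumbered spleen the highest, at 82.9 FPKM. Cd8a over Cd3e was 0.446, 0.0591, 1.55 and 0.217 in plckGAPDH spleens and 0.330, 0.558 and 0.962 in wild-type spleens (exact permutation p = 0.571, adjusted 0.686).

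Prf1, which encodes perforin, was at 15.8, 2.27, 14.7 and 30.4 FPKM in plckGAPDH spleens 343, 508, 547 and the unnumbered spleen, against 8.70, 19.6 and 12.2 FPKM in wild-type spleens 1, 4 and 5. Of the 9 genes it had the fold change nearest 0, at -0.11 (SE 0.65, limma FDR 0.996). Nkg7, a membrane protein of cytotoxic granules, was at 53.8, 3.62, 48.0 and 104 FPKM in plckGAPDH spleens, against 29.8, 119 and 49.2 FPKM in wild-type spleens. Its log2 fold change was -0.75 (limma FDR 0.944). Without spleen 508 the values were 0.55 (FDR 0.869) for Prf1 and 0.20 (FDR 0.959) for Nkg7, and neither passed with or without it.

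Fasl, the death ligand of cytotoxic cells, was at 8.93, 0.19, 4.90 and 6.97 FPKM in plckGAPDH spleens 343, 508, 547 and the unnumbered spleen, against 3.69, 13.9 and 3.49 FPKM in wild-type spleens 1, 4 and 5. Eomes was at 11.04, 0.10, 7.42 and 12.6 FPKM in plckGAPDH spleens, against 5.26, 25.3 and 5.42 FPKM in wild-type spleens. For both genes 3 plckGAPDH spleens lay above wild-type spleens 1 and 5 and below wild-type spleen 4. The log2 fold changes were -0.49 (limma FDR 0.969) for Fasl and -0.71 (limma FDR 0.941) for Eomes, and 0.19 and 0.13 without spleen 508. Tbx21, which encodes T-bet and was named after its values were seen, was at 2.75 to 15.4 FPKM in plckGAPDH spleens and 4.82 to 16.2 FPKM in wild-type spleens.

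**Figure D3:**
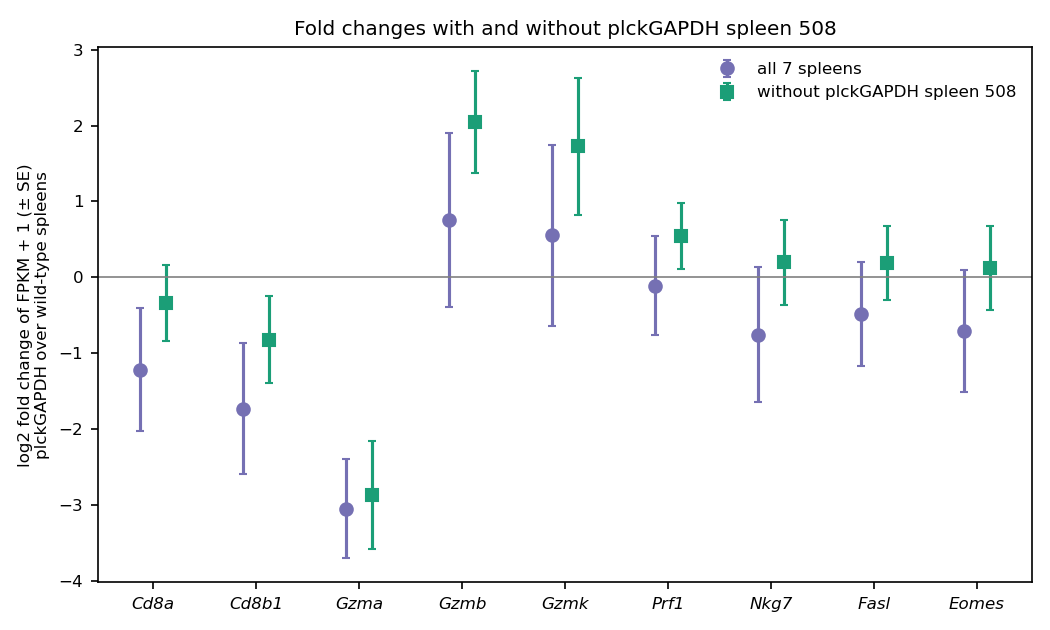
Log2 fold change of FPKM + 1 (± SE) of plckGAPDH over wild-type spleens for each gene, over all 7 spleens and without plckGAPDH spleen 508. Gzma is low in both (-3.04 and -2.87, past the threshold only with spleen 508), and Prf1, Nkg7, Fasl and Eomes are below 0 with spleen 508 and above 0 without it, none of those 4 past the threshold.

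Spleen 508 was the lowest plckGAPDH spleen for all 9 genes. For 8 of them it was more than 5-fold below each of the other plckGAPDH spleens, a depth reached by 2.5% of the 12607 genes tested, although it was the lowest of the group for 57.7% of them. The gap to the next lowest plckGAPDH spleen was 147-fold for Gzmb, 74.2-fold for Eomes, 24.6-fold for Cd8a and 6.49-fold for Prf1, and for Gzma only 1.08-fold. Of the 12 pan-T genes, spleen 508 was the lowest plckGAPDH spleen for 8, and more than 5-fold below each of the others for 1, the adaptor gene Lat, at 7.40-fold. Cd3e was at 8.12 FPKM there and at 13.02 to 79.16 FPKM in the other plckGAPDH spleens, and Cd4 was at 12.7 FPKM there. Of all FPKM in spleen 508, 9.03% came from immunoglobulin genes. In spleens 343, 547 and the unnumbered spleen this share was 0.825%, 1.499% and 0.913%, and its part in the low values was not tested. Relative to Cd3e in the same library, Cd8a was lowest of the spleens in spleen 508, at 0.0591, but Gzma was not, at 0.201.

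The lymph nodes of plckGAPDH mice held less of most of these genes than the plckGAPDH spleens other than 508. In lymph node 455, Cd8a, Gzmb, Gzmk and Prf1 were at 5.38, 7.30, 8.03 and 2.79 FPKM. In lymph node 508 they were at 0.43, 1.19, 1.92 and 0.96 FPKM, and all 9 genes were lower there than in lymph node 455. For 8 of the 9 genes, lymph node 455 lay between spleen 508 and the other plckGAPDH spleens. Gzma was the exception, at 15.8 FPKM in lymph node 455 and 3.36 in lymph node 508, against 1.63 to 5.50 FPKM in plckGAPDH spleens. Within number 508, 7 of the 9 genes were higher in the lymph node than in the spleen, among them Gzmb at 1.19 against 0.17 FPKM and Gzma at 3.36 against 1.63 FPKM. No share over all genes was computed for these lymph node counts, so they cannot be read as traits of the 9 genes. Gzma made up 50.3% and 49.7% of granzyme FPKM in lymph nodes 455 and 508.

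A fit of 3 groups over all 9 libraries compared lymph nodes with plckGAPDH spleens. In limma, 0 of the 9 genes were called, against 0.0146% of 13682 genes. An unadjusted p under 0.05 was found for 1 of the 9, Prf1, and for 1546 of the 13682 genes, a similar share. The log2 fold change of Prf1 was -2.24 (SE 0.74, limma FDR 0.359) and that of Gzma 1.17 (SE 0.81, limma FDR 0.380). The other 7 lay between -2.09 (Gzmk) and -1.37 (Fasl). Their scale is shifted, since the median over all genes was -0.59 in this comparison, and -0.0009 after median-of-ratios scaling, under which Prf1 was at -1.67 and Gzma at 1.84. Both comparisons use the plckGAPDH spleens, so their values are not independent of each other. Without spleen 508, Prf1 was at -2.89 (limma FDR 0.0571), and 0 of the 9 genes passed. The libraries of number 508 were treated as independent. With that number as a block, Prf1 was at -1.75 (limma FDR 0.465) and Gzmb at -1.05, against -2.02 without the block, and 0 of the 9 genes passed.

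Wider lists of the same biology showed few called genes. Of 27 other granule and killing genes, 20 were tested and 0 were called, with 11 log2 fold changes above 0, 9 below and a median of 0.05. Xcl1 (-2.04, limma FDR 0.0642) and Ctsw (-1.46, limma FDR 0.183) had every plckGAPDH spleen below every wild-type spleen, as had 3.88% of all genes tested. The most abundant were Srgn, the proteoglycan that packs granules, at 0.09 (limma FDR 0.994), the chemokine Ccl5 at -0.80 (FDR 0.967) and Ctsc, the protease that activates granzymes, at -0.05 (FDR 0.997). Of 11 transcription factors of CD8 and cytotoxic cells, 10 were tested and 0 called, with a median of -0.13, and the most abundant, Id2, Bhlhe40 and Tcf7, were at -0.21, 0.93 and -1.40. Of 12 surface receptors of effector and memory CD8 T cells, 1 was called lower and 0 higher, with 10 fold changes below 0 and a median of -0.75. That gene was Il7r, the interleukin 7 receptor that keeps naive and memory T cells alive. It was at 8.47, 2.33, 2.23 and 8.05 FPKM in plckGAPDH spleens 343, 508, 547 and the unnumbered spleen, against 20.2, 36.9 and 28.6 FPKM in wild-type spleens 1, 4 and 5, and fell by 2.38 (SE 0.48, limma FDR 0.0287). The call was lost without wild-type spleen 4 (FDR 0.206), wild-type spleen 5 (FDR 0.144) or spleen 508 (FDR 0.0746). Among the abundant genes of that list, Cd44 and Il2rb were at 0.99 and -0.23, neither called.

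Genes of T cells in general and of inhibitory receptors were not called either. Of 12 pan-T genes, 0 were called, each fold change was below 0 and the median was -0.64, with Cd2, Cd3g and Lck at -0.69, -0.59 and -0.93. The list summed to 172 to 994 FPKM in plckGAPDH spleens and 424 to 692 FPKM in wild-type spleens. Of 6 inhibitory receptors tested, 5 had positive fold changes and 0 were called, with a median of 0.66. Pdcd1, which encodes PD-1, was at 6.58 to 96.3 FPKM in plckGAPDH spleens and 1.64 to 28.0 FPKM in wild-type spleens (1.23, limma FDR 0.857), and Entpd1 and Ctla4 were at 0.49 and 0.83. The 7 basophil and mast cell genes, a further source of granule proteases, summed to 0.45 to 7.12 FPKM in plckGAPDH spleens and 3.59 to 7.34 FPKM in wild-type spleens. Of these, 2 were tested and 0 called, Mcpt8 at 0.69 and Cpa3 at -0.52. Cma1, not tested, was at most 0.09 FPKM in plckGAPDH spleens, against 0.55 to 3.97 FPKM in wild-type spleens. Mcpt4, not tested, was at 0 FPKM in plckGAPDH spleens and at 0.05, 1.92 and 0.10 FPKM in wild-type spleens 1, 4 and 5. Fcer1a, not tested, went the other way, averaging 0.31 FPKM in plckGAPDH and 0.21 FPKM in wild-type spleens. Of 6 gamma delta T cell genes in the table, 4 were tested and 0 called, with all 4 fold changes below 0 (median -1.28). Trdc, not tested, was at 0.05 FPKM or less in plckGAPDH spleens and 0.40 to 2.70 FPKM in wild-type spleens.

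Each of the 9 genes was set beside the genes nearest to it in pattern. For each gene, the nearest were taken by the root-mean-square difference of log2(FPKM + 1), centred on each gene's mean, over all 9 libraries and 12573 other genes. Gzma was nearest to Pxdc1 (0.71), Ncr1 (0.71) and Hes1 (0.72). Gzmk was nearest to the chemokine genes Ccl4 (0.53) and Ccl3 (0.69), and Gzmb to Ccl4 (0.81), at a larger distance. Cd8a and Cd8b1 were both near Lat (0.44 and 0.49), an adaptor of T cell receptor signalling, and Cd8b1 was nearest to Ms4a4b (0.48). Nkg7 was nearest to Ccl5 (0.47), Prf1 to Sh2d2a (0.39) and Eomes to Baiap3 (0.45). Libraries share their scaling and their total T cell RNA across all genes, so these distances describe the 9 libraries. A nearest gene is found whatever the data, and no distances of other genes were computed for comparison. On the same scale, the SD over the libraries was 1.65 for Gzma and 1.90 for Gzmb.

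**Figure D4:**
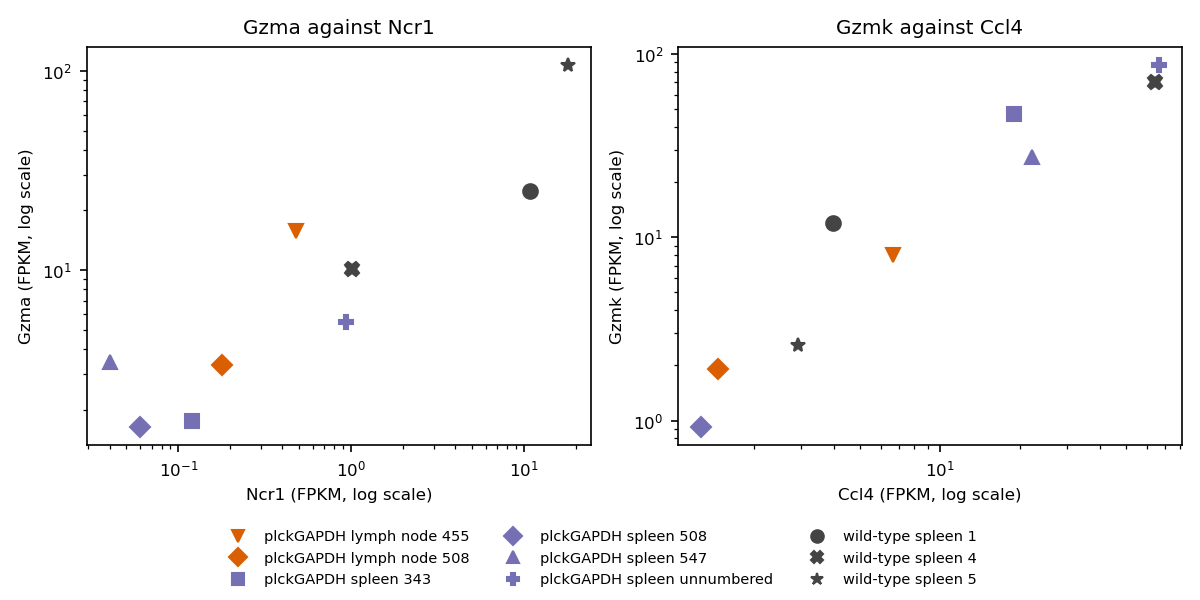
Gzma against Ncr1 (left) and Gzmk against Ccl4 (right) in FPKM on log scales, 1 symbol per library. Wild-type spleens 1 and 5 are high in both Gzma (24.8 and 107 FPKM) and Ncr1 (10.9 and 18.0 FPKM), while the unnumbered plckGAPDH spleen and wild-type spleen 4 are high in both Gzmk (86.9 and 70.0 FPKM) and Ccl4 (66.5 and 64.1 FPKM). Lymph node 455 has more Gzma than wild-type spleen 4 (15.8 against 10.2 FPKM) but less Ncr1 (0.48 against 1.01 FPKM).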

How the data were processed

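RNA of 9 libraries was measured. Per the labels' protocols, libraries came from total RNA with a strand-keeping kit and were read from both ends. The authors deposited FPKM per gene, rounded to 2 decimals. The submitters' processing notes name mm10 and these tools, without roles: Bowtie2 (2.2.6), RSEM, featureCounts, Subread (1.5.0-p3) and STAR (2.4.0a). The sources used here do not say which of them made the FPKM. Per the titles, 1 spleen is numbered 331, but no column carries that number, and the 1 column without a number was used only as a member of its group.

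Depth was estimated from low values of genes with 1 transcript. Of these, 80.6% to 85.5% lay at whole fragments within rounding plus 0.05 fragments, against 24.8% to 26.4% by chance. The effective length, 160 to 170 bases under the exon length, was fitted in the same scan. FPKM are not counts, so no count model was fitted. At most 0.257% of values were identical between any 2 libraries.

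Groups were compared with limma 3.58.1 (R 4.3.3), trend included, on log2(FPKM + 1): 7 spleens with genes at 1 FPKM in 3, or all 9 libraries with 1 FPKM in 2, adjusted over all genes tested. The code was tested on simulated data. Ratios used an exact two-sided permutation test (the smaller tail doubled, 35 splits) with 0.1 FPKM added. Another form of its p was tried after the first values were seen, then made an alternative. Named genes were the 9, called genes of 15 wider lists, the 3 most abundant of lists described, and the 3 nearest genes, of which some are not reported here. Tbx21, Clec9a, Xcr1, Batf3, Tlr3, Trdc, Xcl1, Ctsw, Mcpt4, Fcer1a and the tissue markers were added after their values were seen. All genes, lists and tests were chosen with earlier results of these data known.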

Additional observations from a re-analysis of the deposited data

Results flagged for a closer look

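Of 18 values checked in the 4 plckGAPDH spleens, 2 had 1 spleen far from the others. The share of Gzma in granzyme FPKM was 56.8% in spleen 508 and 2.33% to 3.99% in the others, and its gap to the next spleen was 0.969 of the whole range. The log2 ratio of Gzmb to Gzma was also lowest in spleen 508, with a gap of 0.836 of the range. Both values share the Gzma and Gzmb levels of that spleen, where the granzymes summed to 2.87 FPKM and Gzmb rested on about 5 fragments. About 5% of such groups are set apart by chance.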

How the results depend on the processing

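The count of the 9 genes called in spleens was 1. It was 0 with 0.1 or 5 FPKM added in place of 1, with no filter on low values, median-of-ratios scaling, antigen receptor genes left out of the genes tested or no trend, and 2 with sample quality weights (Gzma and Gzmb). It ran from 0 to 1 when each spleen was left out, and was 0 without spleens 508, wild-type 1 or wild-type 5. Over all genes, 181 were called, against 74 with no filter, 0 (947 at an unadjusted p under 0.05) with antigen receptor genes left out, 1863 with quality weights and 12 without wild-type spleens 4 and 5. Leaving out each spleen gave 72 (without wild-type spleen 5) to 265, with 110 and 90 without wild-type spleens 1 and 4. The fall of Il7r was called in 8 of 18 alternatives, that of Klrd1 in 6 of 18, Klre1 in 8 of 18 and Klrc2 in 10 of the 16 in which it was tested, with no change of sign. The quality weights stopped before convergence, with 24.8 for wild-type spleen 1 and at most 2.04 for each other spleen.

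Some alternatives were chosen after seeing the data. Leaving out spleen 508 and wild-type spleen 5 together gave 79 calls, and 0 of the 9 genes. Leaving out spleen 508 and wild-type spleens 4 and 5 together left 1 wild-type spleen, assumed to vary like the plckGAPDH ones. It gave 0 calls in limma (347 at an unadjusted p under 0.05), 0 of the 9 genes, and Gzma at -2.58 (FDR 0.87). Taking the ratios' exact permutation p by the size of the difference, a form adopted for a time after the first values were seen, gave 0.0286 (adjusted 0.171) for Cd8b1 over Cd8a, 0.657 for Cd8a over Cd4 (adjusted 0.657), 0.543 for Cd8a over Cd3e (adjusted 0.651), and 0.114, 0.171 and 0.143 for Gzma over Cd3e, Gzmb over Gzma and Gzmk over Gzma (each adjusted 0.257). No adjusted p passed in either form, and in the main form none could, since its lowest possible p is 0.0571.

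Genes that were not called changed sign under some settings. Under quality weights, Cd8a was at 0.43, Cd8b1 at 0.22, Prf1 at 1.08, Nkg7 at 1.01, Fasl at 0.52 and Eomes at 0.66. Without wild-type spleens 4 and 5, Prf1 was at 0.40, Nkg7 at 0.13 and Fasl at 0.0499, and with 5 FPKM added Prf1 was at 0.0049. Without spleen 508 and wild-type spleen 5, Prf1 was at 0.52 and Nkg7 at 0.11. Without spleen 508 and wild-type spleens 4 and 5, Cd8a was at 0.77, Cd8b1 at 0.57, Prf1 at 1.06, Nkg7 at 1.09, Fasl at 0.73 and Eomes at 0.83. With each spleen left out, Gzmk ran from -0.47 to 1.73, Prf1 from -0.54 to 0.55, Nkg7 from -1.30 to 0.20, Fasl from -0.83 to 0.19, Eomes from -1.08 to 0.13, and the log2 ratio of Cd8a to Cd4 from -2.09 to 0.13. The cause was not tested.

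Between lymph nodes and plckGAPDH spleens, 2 genes were called over all genes, 5 with 0.1 FPKM added, 5 with no filter, 1 with median-of-ratios scaling, 8 with the 6 plckGAPDH libraries alone, and 0 (without lymph node 455) to 28 (without lymph node 508) when each library was left out, with 24 without spleen 508. The groups share only the number 508. A fit with 508 as a replicate block, chosen after seeing the data, called 1 gene over all genes, and whether the number pairs the samples could not be checked from 1 pair. In all 11 alternatives, 0 of the 9 genes were called. No paired analysis was possible for the spleens, because their groups share no number.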

Other observations

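The granzyme genes Gzmc, Gzmd, Gzme, Gzmf and Gzmg, neighbours of Gzmb, were at 0.87, 0.29, 0.38, 0.24 and 0.27 FPKM in plckGAPDH spleen 547, each the highest of the 9 libraries. Elsewhere none exceeded 0.21 FPKM, and Gzmn was listed at 0 in all libraries. These genes resemble each other closely, so reads may be split among them. Crtam, a receptor of activated cytotoxic T cells, was at 33.1 FPKM in spleen 547 and 43.3 FPKM in the unnumbered spleen, against 2.13 and 2.58 in the other plckGAPDH spleens and 2.11 to 4.92 FPKM in wild-type spleens. These genes were singled out after their values were seen.

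Eomes and Tbx21 did not keep one ratio across libraries. Eomes over Tbx21 was 4.22 and 0.0714 in lymph nodes 455 and 508, 0.926, 0.0321, 2.70 and 0.819 in plckGAPDH spleens 343, 508, 547 and the unnumbered spleen, and 0.324, 5.24 and 0.977 in wild-type spleens 1, 4 and 5. Both libraries of number 508 had the lowest ratios.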
